A study of Mus musculus with 15 samples.

Results

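The genes for Wnt, Fgf and Bmp proteins were taken by symbol from the deposited gene table as every Wnt, Fgf or Bmp name followed by a number, and in the Wnt and Bmp names by an optional letter a or b, with Fgf4 and Fgf5 left out. They were 50 of 22035 genes, of which 19 were Wnt, 20 Fgf and 11 Bmp genes, and all 50 also had windows in the deposited H3K4me3 table. The cells were TT2, a male wild-type line of mouse embryonic stem cells with C57BL/6 and CBA parents. Each ChIP library was made from a stated number of cells by native ChIP, in which chromatin is immunoprecipitated without crosslinking. There was 1 H3K27me3 library each of 1000, 10000 and 100000 cells, 1 H3K4me3 library each of 5000, 10000 and 100000 cells, and 1 RNA library of 1000 cells. H3K9me3 had 3 libraries of 1000 cells (a, b and c) and 1 each of 10000, 100000 and 1000000 cells. The panH3 antibody, which binds histone H3 whatever its modification, had 2 libraries of 1000 cells (a and b). Since most groups are 1 library of 1 cell line, their values carry no replicate error, and the intervals given cover counting error only.

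The 3 families encode mostly secreted signals. Wnt proteins bind Frizzled and Lrp receptors and stabilise beta-catenin or act through other branches, Fgf proteins bind receptor tyrosine kinases and act through Ras and Erk, and Bmp proteins bind serine/threonine kinase receptors and act through Smad proteins. Many of these genes lie under H3K27me3, a repressive mark made by Polycomb proteins, in undifferentiated embryonic stem cells, and some of them carry H3K4me3, the mark of active promoters, at the same start sites. The symbols also take in relatives that are not classical ligands: Bmp1 encodes a protease that cleaves procollagen, Bmp3 an antagonist of other Bmp proteins, and Fgf11, Fgf12, Fgf13 and Fgf14 proteins that stay inside the cell.

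Levels are RPKM, reads per kilobase of window or transcript scaled to library depth, in all assays. One feature of the gene table governs what its H3K27me3 column can say. The 2 kb window follows the start coordinate of a gene whatever its strand, so that it lies at the start site of plus-strand genes and at the 3′ end of minus-strand genes. Among minus-strand transcripts, 368 of 368 pairs that shared the start coordinate but not the end had identical H3K27me3 values, against 1 of 246 pairs that shared the end, which is where their start site lies. At 100000 cells, minus-strand windows correlated with 2 kb bins centred within 300 bp of the start coordinate (Spearman rho 0.977, across genes) more closely than with bins at the end coordinate (0.646). H3K27me3 at start sites is therefore given for the 27 plus-strand members (11 Wnt, 10 Fgf and 6 Bmp genes), and the values of the 23 minus-strand members are given as 3′-end values. The H3K4me3 windows lie at start sites on both strands.

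The RNA library was checked for cell identity. Of 10 stem cell markers, 9 were in the table and all 9 had at least 1 RPKM of RNA, between 15.0 and 222 RPKM. Of 12 markers of feeder fibroblasts, 1 reached 1 RPKM (Thy1, 1.79 RPKM) and 5 were listed at 0. Of 7 markers of primitive endoderm, 1 reached 1 RPKM (Dab2, 1.11 RPKM), and 2 of 6 neural markers did (Olig2 at 2.57 and Nes at 1.55 RPKM). In a bulk library a low level in every cell and a high level in few cells cannot be told apart.

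The promoters of 4 members are shown because, among the members in the RefSeq promoter table (GRCm38.p6), Fgf9 and Wnt1 had the highest gene-table windows of H3K27me3 on the plus strand at 100000 cells, and Wnt5b and Bmp4 had the most RNA. Each runs 5′ to 3′ on the gene's strand over 300 bases, 250 before and 50 after the annotated start, and capitals mark CpG dinucleotides, the sites of DNA methylation in vertebrates. The Fgf9 promoter (chr14:58072436-58072735, plus strand) holds 12 CpG dinucleotides, the Wnt1 promoter (chr15:98789607-98789906, plus strand) 26, the upstream Wnt5b promoter (chr6:119544298-119544597, minus strand) 47 and the Bmp4 promoter (chr14:46390620-46390919, minus strand) 12.
Fgf9: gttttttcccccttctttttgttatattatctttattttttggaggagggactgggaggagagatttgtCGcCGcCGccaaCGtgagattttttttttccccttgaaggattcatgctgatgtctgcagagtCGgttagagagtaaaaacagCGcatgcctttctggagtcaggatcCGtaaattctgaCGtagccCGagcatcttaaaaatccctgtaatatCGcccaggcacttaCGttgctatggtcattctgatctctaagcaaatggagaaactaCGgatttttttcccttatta
Wnt1: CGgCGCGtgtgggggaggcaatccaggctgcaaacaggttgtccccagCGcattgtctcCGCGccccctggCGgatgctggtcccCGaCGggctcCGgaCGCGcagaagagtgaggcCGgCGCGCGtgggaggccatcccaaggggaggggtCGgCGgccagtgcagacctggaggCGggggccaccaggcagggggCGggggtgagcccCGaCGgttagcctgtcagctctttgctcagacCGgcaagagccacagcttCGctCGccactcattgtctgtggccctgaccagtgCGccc
Wnt5b: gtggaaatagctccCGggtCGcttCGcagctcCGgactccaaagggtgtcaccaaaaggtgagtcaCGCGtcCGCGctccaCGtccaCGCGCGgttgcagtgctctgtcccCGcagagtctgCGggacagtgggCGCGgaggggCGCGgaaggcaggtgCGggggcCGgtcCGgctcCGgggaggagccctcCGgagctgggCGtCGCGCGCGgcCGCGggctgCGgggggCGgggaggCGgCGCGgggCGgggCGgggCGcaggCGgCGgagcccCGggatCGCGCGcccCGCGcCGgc
Bmp4: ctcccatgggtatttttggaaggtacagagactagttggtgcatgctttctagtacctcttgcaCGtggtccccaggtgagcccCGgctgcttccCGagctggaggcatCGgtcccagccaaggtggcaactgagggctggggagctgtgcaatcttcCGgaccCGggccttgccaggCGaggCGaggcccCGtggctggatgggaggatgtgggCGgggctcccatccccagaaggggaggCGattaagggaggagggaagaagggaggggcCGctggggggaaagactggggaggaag

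G and C make up 42.7% of the Fgf9 promoter and 70.7% of the Wnt1 promoter. In all, 36 of the 50 members were in that table. With the promoter of the most CpG dinucleotides standing for a gene, the median count was 31 in 15 Wnt genes (range 6 to 58), 12 in 14 Fgf genes (5 to 47) and 12 in 7 Bmp genes (2 to 27). Over the members the median was 20.5, against 8 over all 27025 genes of the promoter table. That set is not limited to genes of the gene table. Wnt9a held the most, 58, and Bmp15, an X-linked gene for a growth factor of the oocyte, the fewest, 2. Among plus-strand members, the 15 with at least 1 RPKM of H3K27me3 at 100000 cells had a median of 24 CpG dinucleotides, and the 5 below it a median of 6. The same split gave medians of 20 and 15 over all plus-strand genes (957 and 6456 genes). Across the 20 plus-strand members CpG count and H3K27me3 ranked together with a Spearman rho of 0.645, against -0.18 over 7413 plus-strand genes, and these are descriptions across genes of 1 library.

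The motifs GGGCGG and TATAAA were searched on both strands, and neither can overlap the other. GGGCGG, the core of the GC box bound by Sp factors, was in 69.4% of the member promoters. Over all 27025 genes of the promoter table, with 1 promoter per gene, it was in 37.3%. In plus-strand genes of the gene table it was in 60.6% of those with at least 1 RPKM of H3K27me3 and in 49.5% of those below. By family it was in 12 of 15 Wnt, 9 of 14 Fgf and 4 of 7 Bmp promoters. TATAAA, the core of the TATA box, was in 3 of 36 member promoters (8.33%) and in 13.7% of the 27025 genes. In the same groups of plus-strand genes it was in 9.3% and 12.5%. Of the 4 promoters shown, Wnt1, Wnt5b and Bmp4 held GGGCGG, Fgf9 did not, and none held TATAAA.

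H3K27me3 at the start sites was compared among the families and with all genes. At 100000 cells, 21 of 27 plus-strand members had at least 1 RPKM, which is called marked here, against 13.5% of 11080 plus-strand genes. They were 10 of 11 Wnt genes, 7 of 10 Fgf genes and 4 of 6 Bmp genes. At 10000 cells the same 21 genes were marked (15.5% of all plus-strand genes), and at 1000 cells 12 of 27 were (6.81%), 5 of them Wnt, 4 Fgf and 3 Bmp genes. Median levels at 1000, 10000 and 100000 cells were 0.95, 2.34 and 2.02 RPKM for the Wnt genes, 0.83, 1.515 and 1.33 RPKM for the Fgf genes and 0.975, 1.505 and 1.35 RPKM for the Bmp genes. All plus-strand genes had medians of 0.31, 0.31 and 0.30 RPKM. Genes of a family are not replicates, so these differences were not tested. The order of the families at 100000 cells depends on the scaling. Chromosomes 1 and 11, which hold Wnt6, Wnt10a, Wnt3 and Wnt9a, had medians over their genes of both strands of 0.42 and 0.38 RPKM at 100000 cells, against 0.27 RPKM on chromosomes 2 and 13, which hold Bmp2 and Bmp6. With each chromosome scaled to 1 common median, the medians were 1.61 RPKM for Wnt, 1.43 RPKM for Fgf and 1.61 RPKM for Bmp genes, so that the Wnt and Bmp medians were equal.

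**Figure D1:**
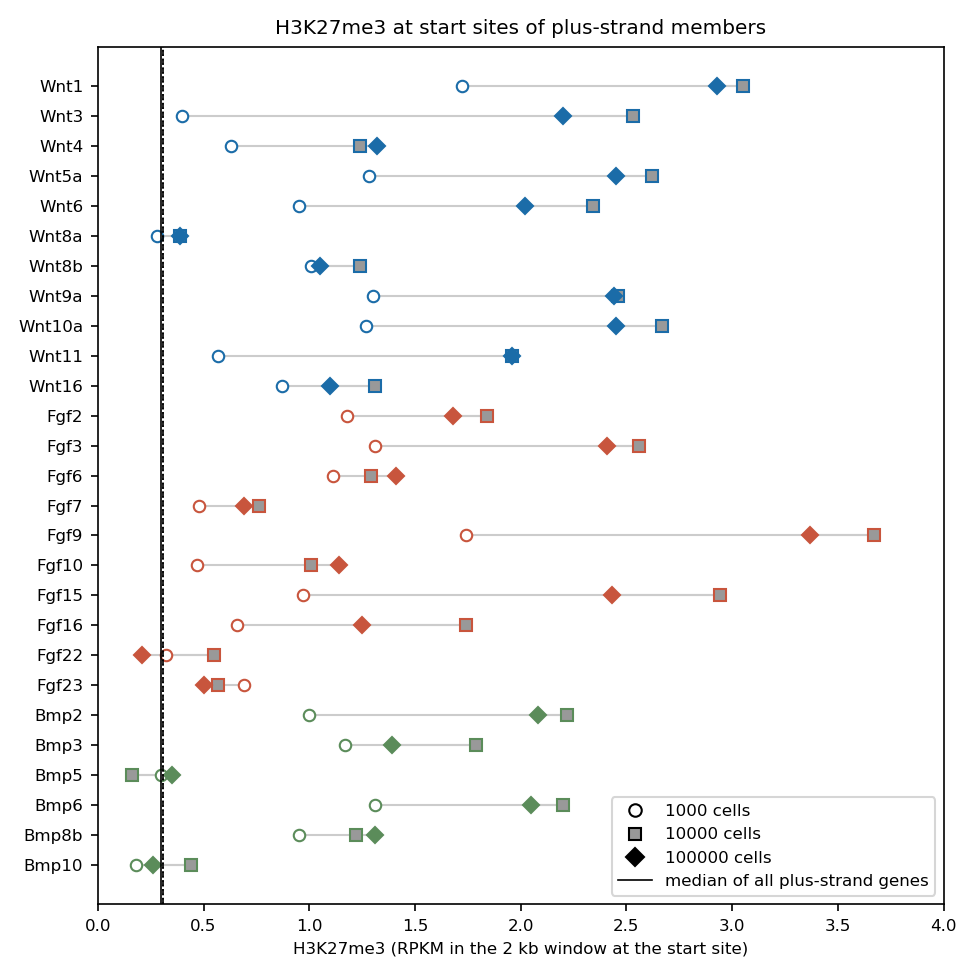
H3K27me3 level (RPKM, horizontal axis) in the 2 kb window at the start site of each of the 27 plus-strand members, with 1 symbol per library of 1000, 10000 and 100000 cells and Wnt, Fgf and Bmp genes in blue, red and green. The vertical lines are the medians of all plus-strand genes, 0.31, 0.31 and 0.30 RPKM, and most members lie right of them in all 3 libraries, with the 1000-cell symbol left of the other 2 in the highest members.

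Among the Wnt genes, Wnt1 (chr15:98620288-98624264 in mm9, a signal of the midbrain and neural crest) had the highest level. It had 1.72, 3.05 and 2.93 RPKM of H3K27me3 at 1000, 10000 and 100000 cells, or about 45, 93 and 115 reads. Wnt5a, which acts mainly outside the beta-catenin branch, had 1.28, 2.62 and 2.45 RPKM. Wnt10a, a signal of teeth and skin, had 1.27, 2.67 and 2.45 RPKM, and the adjacent Wnt6, 6.7 kb away on the same strand, 0.95, 2.34 and 2.02 RPKM. Wnt9a had 1.30, 2.46 and 2.44 RPKM. At 100000 cells the 95% counting intervals of Wnt5a, Wnt10a and Wnt9a overlap. Wnt3, a gene needed to form the primitive streak, had 0.40, 2.53 and 2.20 RPKM, so that it stood near the background of all genes at 1000 cells and among the highest members at the other cell numbers. Wnt11, which guides cell movements at gastrulation, had 0.57, 1.96 and 1.96 RPKM. Wnt4, Wnt16 and Wnt8b had between 1.05 and 1.32 RPKM at 100000 cells. Wnt8a, a signal of the primitive streak, was the lowest, with 0.28, 0.39 and 0.39 RPKM, close to the median of all genes.

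Among the Fgf genes, Fgf9 (chr14:58691520-58731556 in mm9, plus strand, a signal in lung, gonad and skeleton) had the highest gene-table window of the plus-strand members. Its levels were 1.74, 3.67 and 3.37 RPKM at 1000, 10000 and 100000 cells. Fgf15, the hormone that in mice signals from gut to liver, had 0.97, 2.94 and 2.43 RPKM, and Fgf3, a signal of the inner ear, 1.31, 2.56 and 2.41 RPKM. These 2 genes lie 53.2 kb apart on chromosome 7 and had nearly equal levels at 100000 cells. Fgf2, a mitogen of many cell types, had 1.18, 1.84 and 1.68 RPKM and Fgf6, a gene of muscle, 1.11, 1.29 and 1.41 RPKM. Fgf16, an X-linked gene that male cells carry in 1 copy, had 0.66, 1.74 and 1.25 RPKM, and Fgf10, a signal of limb and lung buds, 0.47, 1.01 and 1.14 RPKM. The other 3 Fgf genes stayed below 1 RPKM in all 3 libraries. Fgf7 had 0.48, 0.76 and 0.69 RPKM, Fgf23, a phosphate hormone of bone 48.2 kb from Fgf6, 0.69, 0.57 and 0.50 RPKM, and Fgf22, at the bottom, 0.32, 0.55 and 0.21 RPKM.

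Among the Bmp genes, Bmp2 (chr2:133378936-133388624 in mm9, a signal of bone and heart) had 1.00, 2.22 and 2.08 RPKM, and Bmp6, a regulator of iron balance, 1.31, 2.20 and 2.05 RPKM. Bmp3 had 1.17, 1.79 and 1.39 RPKM and Bmp8b, a gene of the germ line and placenta, 0.95, 1.22 and 1.31 RPKM. The other 2 plus-strand Bmp genes were near the median of all genes. Bmp5 had 0.30, 0.16 and 0.35 RPKM and Bmp10, a gene of the heart, 0.18, 0.44 and 0.26 RPKM. The members nearest to the threshold at 100000 cells were Wnt8b at 1.05 RPKM inside it and Fgf7 at 0.69 RPKM outside it.

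The levels of the 1000-cell library were set against those of the 100000-cell library, which asks how much of the mark is seen from few cells. Ratios are on the log2(RPKM + 0.1) scale, without a test, for members whose mean over the 3 libraries reached 1 RPKM. All 20 such members were lower at 1000 cells (94% of 1326 plus-strand genes were), and 14 were lower by over 1.5-fold, against 57.4% of those genes. None was higher by over 1.5-fold (0.302%). The 14 were 8 of 10 Wnt, 4 of 6 Fgf and 2 of 4 Bmp genes. The median log2 ratio was -0.85 over the members, with -0.89 for Wnt, -0.83 for Fgf and -0.52 for Bmp genes, and -0.65 over all 1326 genes. With a pseudocount of 1 RPKM the number of members lower by over 1.5-fold was 8, and the share of all genes at that setting was not computed. The filter counts the 10000- and 100000-cell libraries, so a gene high only there can pass it, which favours negative ratios. Without the filter 15 of 27 members were lower by over 1.5-fold, and their median log2 ratio was -0.735. Fgf22 and Fgf23 were then higher at 1000 cells, at 0.44 and 0.40. The share of all genes without the filter was not computed.

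Wnt3 was furthest down, with a log2 ratio of -2.20 at 1000 against 100000 cells. Its plain ratio was 0.182 (95% counting interval 0.0803 to 0.334). Wnt11 followed at -1.62, with a plain ratio of 0.291 (0.157 to 0.515), so that the intervals of these 2 genes overlap. The next were Fgf15 at -1.24 and Wnt6 at -1.01 among the genes past the filter. Of the Bmp genes the lowest were Bmp2 at -0.99 and Bmp6 at -0.61. The smallest differences were those of Wnt8b at -0.05, Bmp3 at -0.23 and Wnt16 at -0.31, whose plain ratios of 0.962, 0.842 and 0.791 had intervals that include 1. Fgf16 lay at -0.83 and Fgf6 at -0.32.

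At the 3′ ends, 5 of 23 minus-strand members had at least 1 RPKM of H3K27me3 at 100000 cells (5.6% of 10955 minus-strand genes). These were Wnt3a, Wnt10b, Fgf8, Fgf11 and Fgf20, and no Bmp gene. Wnt3a, a signal of the tail bud 16.2 kb from Wnt9a, had 1.35, 2.50 and 1.86 RPKM at its 3′ end at 1000, 10000 and 100000 cells. Wnt10b, 11.7 kb from Wnt1, had 1.59, 1.47 and 1.38 RPKM. Fgf11, Fgf20 and Fgf8 had 1.74, 1.33 and 1.13 RPKM at 100000 cells. The lowest 3′ ends were those of Fgf17 at 0.03 RPKM, Bmp7 at 0.11 RPKM and Fgf13, on the X chromosome, at 0.12 RPKM. Over the 23 genes the medians were 0.47, 0.49 and 0.55 RPKM, against 0.31, 0.26 and 0.25 RPKM over all minus-strand genes.

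For 3 of the 23 minus-strand members another deposited window covered the start site or came within 1 kb of it. A 2 kb bin centred 632 bp from the Wnt5b start site had 1.34, 2.65 and 2.44 RPKM of H3K27me3 at 1000, 10000 and 100000 cells, whereas its 3′ end had 0.35, 0.33 and 0.20 RPKM. Its 3′-end value therefore did not show the level near its start. A bin centred 1308 bp from the Fgf20 start site, inside the gene and not covering that start, had 2.34, 3.24 and 3.41 RPKM. The Fgf20 3′ end had 1.14, 1.01 and 1.33 RPKM. The window of the neighbouring gene Sftpc, 688 bp from the Bmp1 start site, had 0.66, 1.08 and 1.10 RPKM. H3K27me3 at the start sites of the other 20 minus-strand members was not analysed here.

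H3K4me3 was taken from 1 kb windows at annotated start sites, with the window of the highest mean standing for a gene. One read is worth 0.538 RPKM at 5000 cells, 0.938 RPKM at 10000 cells and 0.0602 RPKM at 100000 cells, so the library of 100000 cells carries the comparison. No window of the table exceeds 49.6, 99.4 and 49.2 RPKM at 5000, 10000 and 100000 cells. Whether windows with more were left out was not tested. At 100000 cells 5 of 50 members had at least 5 RPKM, against 21.4% of 25727 genes. At 2 RPKM or more there were 23 of 50 members, against 43.7% of all genes. These were 11 of 19 Wnt, 6 of 20 Fgf and 6 of 11 Bmp genes. The medians at 100000 cells were 2.17 RPKM for Wnt, 1.08 RPKM for Fgf and 2.53 RPKM for Bmp genes, and 1.39 RPKM over all genes.

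Of the 5 members at 5 RPKM or more, 4 had that window at their own start site. Wnt5b had 11.85, 26.3 and 6.81 RPKM at 5000, 10000 and 100000 cells (95% counting interval at 100000 cells 5.61 to 8.18 RPKM). That window is the one farthest upstream, and the Wnt5b promoter shown above, with 47 CpG dinucleotides, is likewise the farthest upstream of its 3 in RefSeq. Its 2 downstream windows had 0.48 and 0.84 RPKM at 100000 cells. Fgf18, a signal of skeleton and lung, had 6.46, 10.3 and 6.20 RPKM, and Wnt9a 10.2, 20.6 and 6.08 RPKM. Wnt4, a signal of kidney and ovary, had 1.62, 12.2 and 5.66 RPKM. The highest window under a member's name was one of Fgf20, with 32.3, 46.9 and 8.37 RPKM, but it lies 21377 bp upstream of the Fgf20 start in the gene table and 280 bp from a start site of Efha2 on the other strand. At the Fgf20 start itself H3K4me3 was 1.62, 1.88 and 1.45 RPKM. The highest Fgf2 window, 3.67 RPKM at 100000 cells, likewise lies 36135 bp upstream of the gene-table start and 35 bp from a start site of Bbs12, and at the Fgf2 start the level was 2.89 RPKM.

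Below 5 RPKM, several Bmp genes lay close together at 100000 cells. Bmp8a had 4.10 RPKM, Bmp1 3.91, Bmp6 3.37, Bmp7 3.31 and Bmp8b 3.25 RPKM, and their 95% counting intervals overlap. Bmp2 came next at 2.53 RPKM, and its interval (1.82 to 3.42 RPKM) overlaps each of theirs. Bmp7, a signal of kidney and eye, had 5.39, 12.2 and 3.31 RPKM at 5000, 10000 and 100000 cells. Bmp4, which supports self-renewal of mouse stem cells through Id genes, had 0.54, 6.56 and 1.14 RPKM. Wnt7b had 3.97 RPKM at 100000 cells, at a start 679 bp from that of AU022754, and Fgf3 3.19 RPKM. The lowest members were Bmp5 at 0.12 RPKM (2 reads) and Fgf7 at 0.24 RPKM (4 reads).

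Several members had start sites with unequal H3K4me3. For Fgf9 the 4 windows had 0.96, 0.84, 1.63 and 2.05 RPKM at 100000 cells, and the highest lies 3824 bp downstream of the gene-table start. For Wnt11 the window 3730 bp upstream had 2.17 RPKM and the one at the gene-table start 1.14 RPKM. The 2 start sites of Fgf14 had 1.99 and 0.54 RPKM, and the one with more is that of the shorter transcript. Wnt1 had 0, 0.94 and 1.14 RPKM at its own start and 0, 1.88 and 0.72 RPKM in a window 1834 bp downstream. At 5000 cells no read fell in either Wnt1 window, which is within what a level of 1 RPKM allows, since the 95% interval of 0 reads there runs up to 1.99 RPKM.

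**Figure D2:**
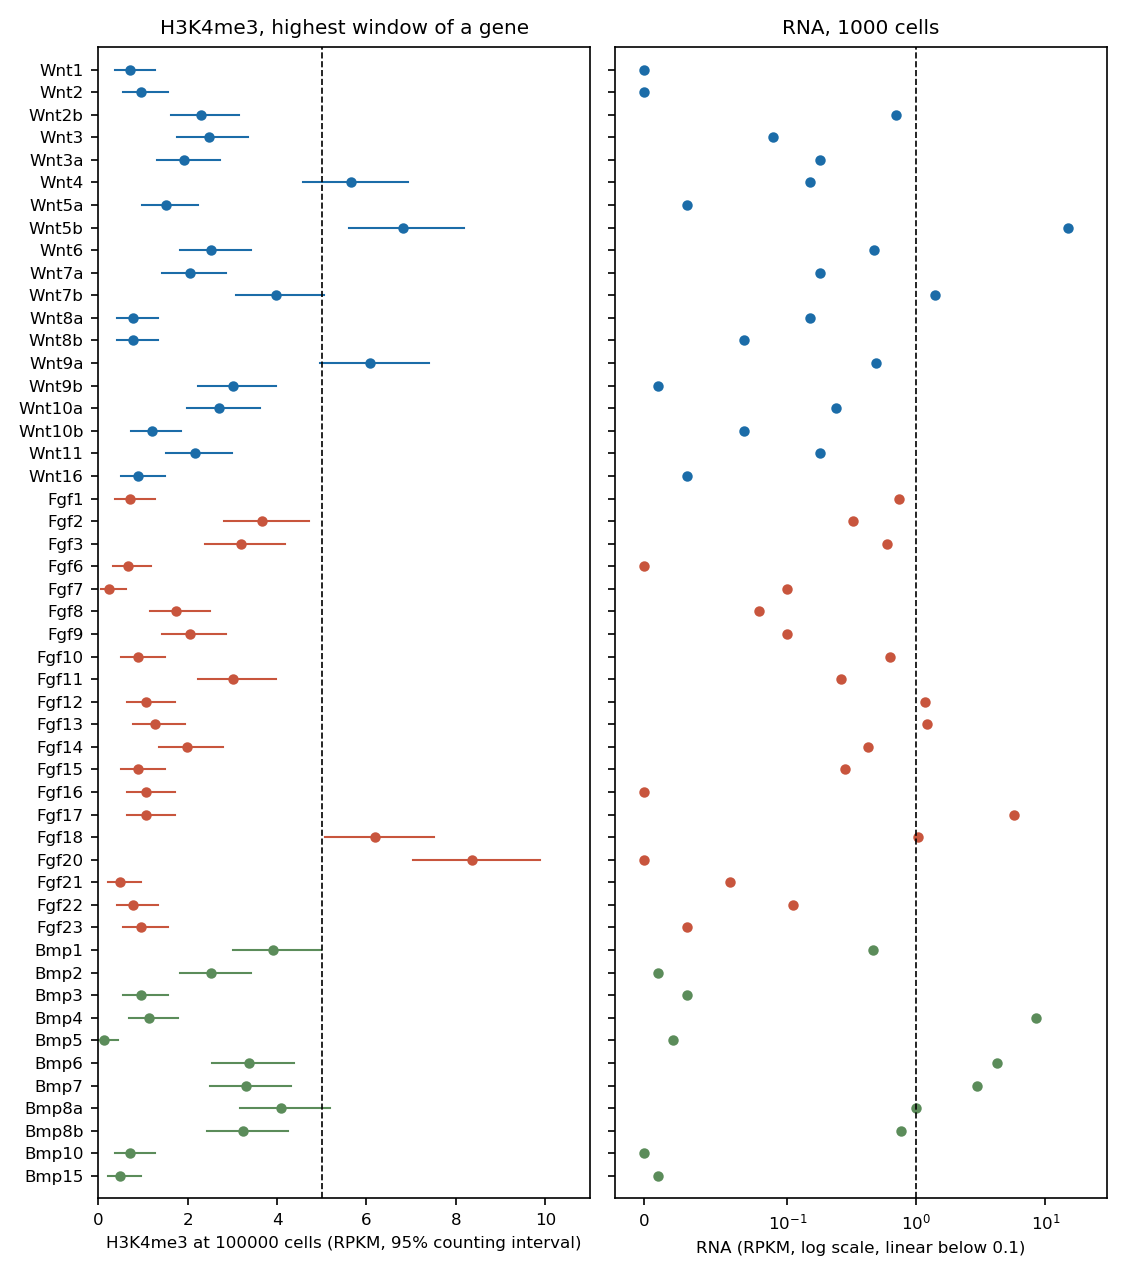
H3K4me3 at 100000 cells (left, RPKM, with 95% counting intervals) and RNA (right, RPKM on a log scale that is linear below 0.1) of the 50 members, Wnt in blue, Fgf in red and Bmp in green, with dashed lines at 5 and 1 RPKM. Wnt5b is far right in both panels, whereas Bmp4 and Fgf17 have RNA of 8.45 and 5.66 RPKM beside low H3K4me3, and the top Fgf20 window is that at the Efha2 start.

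RNA of the ligand genes was low in these cells. Of 50 members 9 had at least 1 RPKM, against 50.2% of 22035 genes, and 6 were listed at 0 (20.9% of all genes). The median was 0.15 RPKM for Wnt, 0.27 RPKM for Fgf and 0.46 RPKM for Bmp genes, against 1.02 RPKM over all genes. Wnt5b had the most, 14.9 RPKM, and Wnt7b was the only other Wnt gene above the threshold, at 1.40 RPKM. The threshold was passed by 4 Fgf genes: Fgf17, a relative of Fgf8 in the brain, at 5.66 RPKM, Fgf13 at 1.21, Fgf12 at 1.17 and Fgf18 at 1.03 RPKM. The Fgf12 value is that of the transcript with the longer genomic span, and its other transcript had 0.15 RPKM. With the mean over the transcripts of a gene, 8 members had at least 1 RPKM. With the highest transcript of a gene, 3 Bmp genes passed the threshold, Bmp4 at 8.45, Bmp6 at 4.19 and Bmp7 at 2.93 RPKM. Bmp8a lay just below at 0.99 RPKM. Listed at 0 were Wnt1, Wnt2, Fgf6, Fgf16, Fgf20 and Bmp10. Since the RNA comes from 1 library of unknown depth, values near the threshold cannot be ordered.

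The marks and RNA were then combined for the 27 plus-strand members. At least 1 RPKM of H3K27me3 together with 5 RPKM of H3K4me3 at 100000 cells was found at Wnt4 and Wnt9a, 2 of 27 members against 1.14% of 10157 plus-strand genes in both tables. With 2 RPKM of H3K4me3 there were 12 of 27, against 5.9%. These 12 were Wnt3, Wnt4, Wnt6, Wnt9a, Wnt10a, Wnt11, Fgf2, Fgf3, Fgf9, Bmp2, Bmp6 and Bmp8b. In 2 of them the H3K4me3 window over 2 RPKM lies away from the H3K27me3 window. At the gene-table start itself H3K4me3 was 0.84 RPKM at Fgf9 and 1.14 RPKM at Wnt11, as given above. The other 9 members with H3K27me3 had between 0.66 and 1.51 RPKM of H3K4me3, among them Wnt1, Fgf15 and Wnt5a. Whether both marks sit on the same nucleosomes or in different cells cannot be told apart here.

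Among the 21 marked members Bmp6 alone had at least 1 RPKM of RNA, whereas 333 of the 1491 marked genes among all plus-strand genes did. Marked and expressed together were thus 1 of 27 plus-strand members, against 3.01% of all plus-strand genes. Bmp6 had 2.05 RPKM of H3K27me3 and 3.37 RPKM of H3K4me3 at 100000 cells beside 4.19 RPKM of RNA. The other 20 marked members had between 0 and 0.76 RPKM of RNA, and the highest of these was Bmp8b. All 6 unmarked plus-strand members, Wnt8a, Fgf7, Fgf22, Fgf23, Bmp5 and Bmp10, also had less RNA, from 0 to 0.15 RPKM. Across the 27 genes H3K27me3 and RNA had a Spearman rho of 0.20, against -0.42 over 11080 plus-strand genes. H3K27me3 and H3K4me3 had 0.51 across the 27 genes, and their value over all genes was not computed. Some members, among them Wnt1, Wnt11, Fgf2 and Fgf9, enter it with an H3K4me3 window away from the gene-table start. H3K4me3 and RNA had a rho of 0.46 over the 50 members and 0.76 over 20317 genes. Displaced windows enter here too, among them that of Fgf20 at the Efha2 start, with 8.37 RPKM of H3K4me3 beside RNA listed at 0. Each of these rho values compares single libraries across genes of different base composition.

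**Figure D3:**
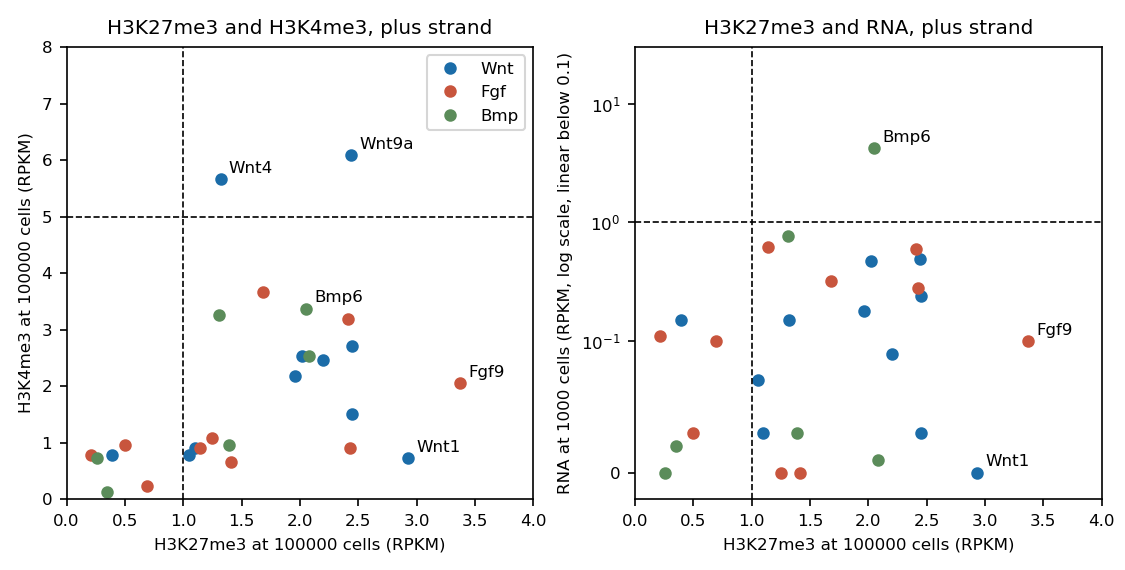
H3K4me3 (left, RPKM) and RNA (right, RPKM on a log scale that is linear below 0.1) against H3K27me3 (RPKM), for the 27 plus-strand members, with ChIP libraries of 100000 cells and dashed lines at the thresholds of 1 RPKM for H3K27me3 and RNA and 5 RPKM for H3K4me3. Wnt4 and Wnt9a lie past both marks' thresholds, and Bmp6, at 2.05 RPKM of H3K27me3 and 4.19 RPKM of RNA, is alone in the upper right of the right panel. H3K4me3 is that of the window with the highest mean, which for Wnt1, Wnt11, Fgf2 and Fgf9, among others, lies away from the gene-table start.

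The expressed minus-strand members show the same measures with the limit on H3K27me3 in view. Wnt5b had 14.9 RPKM of RNA and 6.81 RPKM of H3K4me3 beside 2.44 RPKM of H3K27me3 in the bin 632 bp from its start. In that bin panH3 was 0.46 and 0.55 RPKM. Bmp4 and Fgf17 had 8.45 and 5.66 RPKM of RNA with 1.14 and 1.08 RPKM of H3K4me3, both below the 1.84 RPKM that is the median of the members. Fgf18 combined 6.20 RPKM of H3K4me3 with 1.03 RPKM of RNA.

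The 2 kb bins of the third table were used to look inside the genes. They cover a sample of the genome, and 104 of them touched 26 members (20 bins in 10 Wnt, 67 in 12 Fgf and 17 in 4 Bmp genes). At 100000 cells 11 of the 20 Wnt bins had at least 1 RPKM of H3K27me3, 5 of the 67 Fgf bins and 0 of the 17 Bmp bins, against 4.4% of the 36083 bins that touch a gene. At 1000 cells there were 8, 3 and 0 such bins, against 2.77%. The Bmp bins lay away from start sites. The nearest was 5.06 kb from a start, in Bmp1, and the nearest in Bmp6 39.4 kb. Wnt bins came as near as 0.408 kb, so family and bin position cannot be told apart in these counts. Of the 67 Fgf bins, Fgf14 held 24 and Fgf12 17, both long genes. In the long Fgf14 gene H3K27me3 at 100000 cells ran between 0.18 and 0.74 RPKM, and in Fgf12 between 0.25 and 1.14 RPKM.

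Bins near several start sites were high in H3K27me3. The bin centred 0.408 kb downstream of the Wnt10a start had 1.42, 3.40 and 3.63 RPKM of H3K27me3 at 1000, 10000 and 100000 cells. The Fgf3 bin at 0.488 kb had 2.07, 3.56 and 3.05 RPKM, with panH3 of 0.26 and 0.24 RPKM. The Wnt9a bin at 0.568 kb had 1.23, 2.58 and 2.67 RPKM, and the Wnt16 bin at 2.77 kb 1.15, 2.55 and 2.75 RPKM. The mark was also seen well inside some genes. The Wnt3 bins 9.51, 19.5 and 37.5 kb downstream of the start had 1.73, 1.80 and 3.08 RPKM at 100000 cells, and 0.92, 0.96 and 1.88 RPKM at 1000 cells. In these 3 bins the 1000-cell level was thus above the 0.40 RPKM of the Wnt3 start site in the same library. The Wnt3a bin 29.3 kb downstream of its start had 2.03, 2.29 and 2.29 RPKM. At 100000 cells a Wnt6 bin 12.5 kb from the start had 2.01 RPKM, and the Wnt7a bins 8.36 and 14.4 kb from the start had 1.09 RPKM each.

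**Figure D4:**
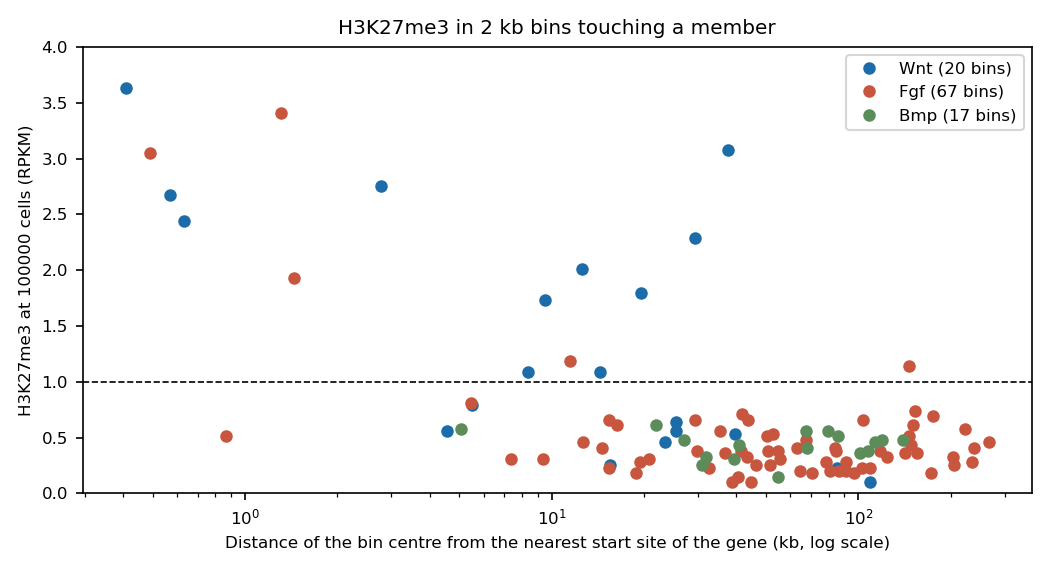
H3K27me3 at 100000 cells (RPKM) in the 104 bins of 2 kb that touch a member, against the distance of the bin centre from the nearest start site of that gene (kb, log scale), Wnt in blue, Fgf in red and Bmp in green. Bins over 1 RPKM lie near start sites except those of Wnt genes out to 37.5 kb and 2 Fgf bins, and no Bmp bin reaches 1 RPKM. The Bmp bin nearest to a start site lies 5.06 kb from it.

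H3K9me3, a mark of heterochromatin, was compared with panH3 at 1000 cells, the comparison with replicates. Whether the libraries came from separate cultures is not stated, so p-values measure the spread between these libraries. Values were tested with limma on log2(RPKM + 0.1) over 93575 bins with Benjamini-Hochberg adjustment. Of the 104 member bins 6 were higher and 19 lower in H3K9me3 than in panH3 at an adjusted p under 0.05. Over all bins 15.2% were higher and 24.7% lower, and over the bins that touch a gene 7.19% were higher and 45.6% lower. With each library centred on its median 11 member bins were higher and 12 lower, and over all bins 20312 were higher and 18564 lower. The split thus depends on the scaling, in the members as over all bins. Without panH3 replicate a there were 3 higher and 6 lower member bins, against 9759 and 15564 over all bins. Without panH3 replicate b there were 6 higher and 7 lower member bins, against 9792 and 15521 over all bins. In the uncentred fit of all libraries, 1 of 20 Wnt, 5 of 67 Fgf and 0 of 17 Bmp bins were higher. There 5 Wnt, 10 Fgf and 4 Bmp bins were lower.

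The bin with the most H3K9me3 lies in the longer transcript of Fgf14, 203.2 kb upstream of the start site of the shorter one (chr14:124794001-124796000 in mm9). It had 1.20, 1.09 and 1.16 RPKM in the H3K9me3 libraries, against 0.39 and 0.40 RPKM in the panH3 libraries. The groups do not overlap, and the log2 difference was 1.34 ± 0.17 (SE, limma adjusted p 1.1e-06). H3K9me3 in 10000, 100000 and 1000000 cells, which the test did not use, was 1.19, 0.94 and 1.02 RPKM there. H3K27me3 in this bin was 0.50, 0.36 and 0.33 RPKM at 1000, 10000 and 100000 cells.

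A bin 11.5 kb into Fgf9 was also high. It had 0.77, 1.12 and 1.18 RPKM of H3K9me3, against 0.40 and 0.44 RPKM of panH3 (log2 difference 1.09 ± 0.19, limma adjusted p 5.35e-05). H3K9me3 was 1.08, 0.72 and 0.85 RPKM there at 10000, 100000 and 1000000 cells, and H3K27me3 0.65, 0.91 and 1.19 RPKM at 1000, 10000 and 100000 cells. The other 4 higher bins lie in Fgf12 (2 bins), Fgf14 and Wnt2, with log2 differences from 0.63 to 0.87.

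Among the lower bins were 3 of the 4 in Wnt5b, the member with the most RNA. The bin 85.4 kb downstream of its first start had 0.17, 0.16 and 0.13 RPKM of H3K9me3, against 0.50 and 0.46 RPKM of panH3 (log2 difference -1.20 ± 0.25, limma adjusted p 0.000358). The lowest bin by log2 difference is centred 0.864 kb upstream of the Fgf22 start (0.09, 0.13 and 0.09 RPKM of H3K9me3, against 0.36 and 0.45 RPKM of panH3), at -1.31 ± 0.26 with a limma adjusted p of 0.00019. In a Wnt9a bin 4.57 kb into the gene the difference was -1.11 ± 0.24 (limma adjusted p 0.000441). The bins in Fgf14 and Fgf9 above, the 3 Wnt5b bins, the Fgf22 and Wnt9a bins and 1 of the Fgf12 bins (chr16:28178001-28180000) kept their call in each of the 10 alternative fits.

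**Figure D5:**
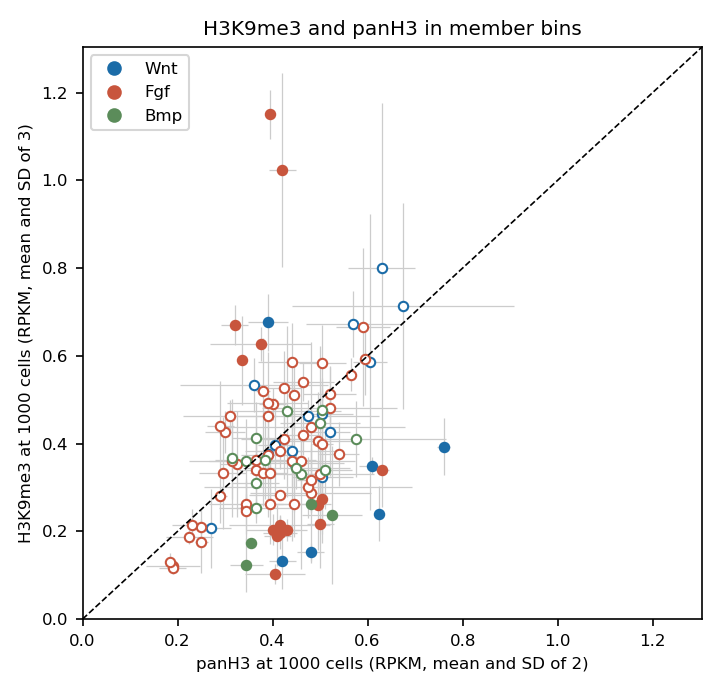
H3K9me3 (mean and SD of 3 libraries) against panH3 (mean and SD of 2 libraries) at 1000 cells in RPKM, for the 104 bins of 2 kb that touch a member, Wnt in blue, Fgf in red and Bmp in green, filled where the limma adjusted p was under 0.05. The dashed line marks equal values, and the Fgf14 and Fgf9 bins at 1.15 and 1.02 RPKM of H3K9me3 stand above the rest.

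The genes that receive, relay or block these signals were read with the same thresholds. Over all genes 50.2% had at least 1 RPKM of RNA, and 13.5% of plus-strand genes were marked by H3K27me3, and the counts below stand beside these shares. Of 16 Wnt receptor genes 13 had at least 1 RPKM of RNA, led by Fzd5 at 22.2, Lrp6 at 16.1 and Ror2 at 15.8 RPKM, and 3 of 8 on the plus strand were marked by H3K27me3 (Fzd8 at 1.19, Fzd4 at 1.08 and Ror1 at 1.02 RPKM). Of 7 Fgf receptor and co-receptor genes 2 were expressed, Fgfr1 at 9.06 and Fgfrl1 at 1.40 RPKM. Of 6 on the plus strand 3 were marked, Kl, a co-receptor of endocrine Fgf proteins, at 2.38 RPKM, Fgfr3, a receptor of cartilage, at 2.23 RPKM and Fgfr4 at 1.08 RPKM. Of 6 Bmp receptor genes 4 were expressed, led by Bmpr2 at 15.1 and Bmpr1a at 14.02 RPKM, and 0 of 3 were marked.

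Among the transducers, at least 1 RPKM of RNA was found for 12 of 13 Wnt, 16 of 16 Fgf and 5 of 6 Bmp transducer genes (50.2% of all genes), with medians of 11.4, 9.68 and 8.67 RPKM. Csnk1a1, the casein kinase that primes beta-catenin, had 90.4 RPKM, Ctnnb1, the gene of beta-catenin, 40.3 RPKM, and Gab1, an adaptor of receptor kinases, 71.5 RPKM. Among those on the plus strand 1 of 10, 0 of 6 and 1 of 3 were marked, namely Tcf7l2 at 1.31 RPKM and Smad9 at 1.79 RPKM. The feedback inhibitors of Fgf signalling were expressed in 8 of 8 cases, with 46.4 RPKM for Spred2, 26.9 for Spred1 and 24.7 for Spry4, and 0 of 5 were marked. Both genes of Wnt secretion had RNA, Porcn at 2.76 and Wls at 1.87 RPKM, and Wls, on the plus strand, was not marked.

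The secreted inhibitors were mostly low in RNA. Of 12 Bmp inhibitors 1 was expressed, Twsg1 at 4.86 RPKM, and 3 of 5 were marked, Chrdl2 at 2.17, Chrd at 1.32 and Bmper at 1.32 RPKM. Of 12 Wnt inhibitors 4 were expressed and 2 of 6 marked. Sfrp1 was in both groups, with 9.84 RPKM of RNA, 2.01 RPKM of H3K27me3 and 7.59 RPKM of H3K4me3, and Dkk2 was marked at 1.17 RPKM and listed at 0 in RNA. Among the target genes, 5 of 10 of Wnt, 6 of 7 of Fgf and 5 of 9 of Bmp signalling had at least 1 RPKM of RNA, and 2 of 6, 1 of 3 and 1 of 5 were marked. The Wnt and Bmp target counts are thus close to the 50.2% of all genes with RNA, and 1 marked of 5 is close to 13.5%. The highest in RNA were Znrf3 at 31.7 RPKM, Etv5 at 41.0 RPKM and Id1 at 12.8 RPKM, and Id1 was also the marked Bmp target, at 1.38 RPKM of H3K27me3. T, a target of Wnt signals in the primitive streak, was marked at 1.69 RPKM with 0.09 RPKM of RNA. Tcf7, Lef1, Spry2, Spry4, Dusp6, Smad6 and Smad7 each count in 2 of these lists.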

How the data were processed

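Native ChIP and RNA libraries of TT2 cells were made from the cell numbers named above, per the labels. The genome was mm9 and the tools BWA and SAMtools, as the submitters' processing notes list them; how reads were counted or filtered is not given in the sources used here. The authors deposited RPKM values for each library. Depth, recovered from the smallest RPKM steps, was 13.0 to 45.5 M reads for the bins and 1.07 to 16.6 M reads for H3K4me3, and gene-table reads were estimated from it. RNA depth is unknown. Counting intervals are Poisson or conditional binomial intervals. Another 2 columns beside H3K4me3 belong to samples not described in the labels and were left out.

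The transcript or window with the highest mean stood for a gene. H3K9me3 and panH3 were compared with limma 3.58.1 in R 4.3.3 (two-sided), leaving out bins at 0 throughout. In 93518 simulated bins of this design, 14% of the bins altered by 1 log2 unit and 76% of those altered by 2 were called, with 1 false call. Only 100 bins were altered at each size, with 1 fixed dispersion, whereas 14224 real bins were called higher and 23158 lower. The adjustment is stricter where few bins differ, so these shares do not measure the recovery of the real test. All other comparisons are of single libraries. The plan took every H3K27me3 window to lie at a start site; their strand was found later. Members, lists and thresholds were chosen with earlier results of these data known. Any member could be named, with full values for the highest and lowest per family and assay, the largest differences between cell numbers and genes with several start sites. Up to 3 genes with the most H3K27me3 and 3 with the most RNA were named per list, and a few others after their values were seen. Promoters came from RefSeq (GRCm38.p6), and its starts may differ from those in mm9. Gene-table positions are rounded by a few bases. Alternatives were other thresholds, pseudocounts, filters, scalings and transcripts, leaving out each replicate, and a replicate block.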

Additional observations from a re-analysis of the deposited data

How the results depend on the processing

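Of 338 alternative values, 264 kept their call or range, 19 counts or medians moved and 0 reversed. Another 55 bin calls in H3K9me3 against panH3 lost significance in the same direction. This tally says little about the ligand genes. Most of its values are refits, 10 for each of the 6 higher and 19 lower member bins. Those bins were chosen because the main fit called them. Counts and median levels have no direction, so they could not reverse. With each chromosome scaled to 1 common median, the Wnt and Bmp medians of H3K27me3 counted as kept. Yet they went from 2.02 and 1.35 RPKM to 1.61 RPKM each, which made them equal. For H3K27me3 at start sites, 11 members were marked at a threshold of 2 RPKM. With both strands as deposited, chosen after seeing the data, the medians were 1.32 RPKM for Wnt and 0.55 RPKM for Bmp genes; that setting mixes 3′ ends with start sites. At 1000 against 100000 cells 8 members were lower by over 1.5-fold with a pseudocount of 1. For H3K4me3, 23 members passed 2 RPKM and 0 passed 10 RPKM, and the mean over the windows of a gene gave 2 members and a median of 1.17 RPKM. RNA passed 0.5 RPKM in 15 and 2 RPKM in 5 members, and the mean over rows gave a Bmp median of 0.425 RPKM. Both marks were found at 1 member with 2 RPKM of H3K27me3, and at 12 and 0 members with 2 and 10 RPKM of H3K4me3. Over all genes 43.7% passed 2 RPKM of H3K4me3, and 5.9% of plus-strand genes had both marks at that threshold. For the other counts of genes at these settings the share of all genes was not computed, so they cannot be set against it. For H3K9me3 against panH3, centring the libraries gave 11 higher and 12 lower member bins, against 20312 and 18564 over all bins. Leaving out 1 replicate gave 3 to 7 higher and 6 to 23 lower member bins. Over all bins it gave 9759 to 16475 higher and 15521 to 25897 lower. The letters a and b do not pair the libraries (correlation of the a minus b deviations -0.00955); with a replicate block on them, without H3K9me3 replicate c, 5 bins were higher and 16 lower, as without the block in the same 4 libraries. The median log2 difference over all bins was -0.0962, and 0.0771 after centring. Single libraries, and 1 to 2 M reads for H3K4me3 at 5000 and 10000 cells, limit what small differences can show.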
